A study of Mus musculus with 15 samples.

Results

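Interferon-stimulated genes (ISGs) are the genes that cells switch on when interferon reaches them. A set of 33 of them was followed here, 25 antiviral effectors and 8 regulators of the response, through the growth of mouse bone marrow cells into macrophages and through exposure of those macrophages to interleukin-4 (IL4). Members were found as rows whose gene symbol equalled a name on the list. In the count table of the 3 stages, 32 of the 33 had a row among 34245 genes, and the exception was Mx2. In the count table of the IL4 experiment all 33 had a row among 25965 genes.

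The cells came from male C57BL/6 mice aged 8 to 10 weeks and were grown with colony-stimulating factor 1 (CSF1), the growth factor of macrophages. Precursors were the cells that had not stuck to the dish after 2 days at 0.6 ng/ml CSF1 in 15% foetal calf serum. Immature macrophages had a further 4 days at 12 ng/ml CSF1 in 10% serum, for 6 days in all. Mature macrophages had 1 day at 0.6 ng/ml, 2 days at 12 ng/ml and 7 days at 120 ng/ml CSF1, for 10 days in all. The remaining groups were mature macrophages kept 2 more days (48 h) in fresh medium at 120 ng/ml CSF1, either alone (unstimulated) or with 20 ng/ml IL4. All 5 groups received CSF1, and the labels name no interferon treatment. Each group had 3 libraries, titled by mouse 1 to 3. Serum was 15% at first and 10% later in every group but the precursors. Precursors thus differ from the later stages in CSF1 dose, time and serum at once. Immature and mature cells differ in CSF1 dose and time at once. Within each comparison these cannot be told apart.

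Type I interferon binds a receptor of Ifnar1 and Ifnar2 chains, whose kinases phosphorylate Stat2. With Irf9 it forms part of a complex that binds the interferon-stimulated response element in promoters of the target genes. Irf7 is both a target and an inducer of interferon genes, Ddx58 (RIG-I), Ifih1 (MDA5), Dhx58 (LGP2) and Zbp1 sense viral or displaced nucleic acid, and Usp18 damps the receptor. The effectors act on the virus or on the infected cell: Ifit proteins bind viral RNA, Oas enzymes make the signal that activates RNase L, Mx and Gbp proteins are GTPases, Rsad2 (viperin) and its neighbour Cmpk2 act on nucleotides, and Bst2 (tetherin) holds budding virions. Macrophages are known to keep such genes at a low tonic level without infection.

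The response element itself is shown first, since it is the sequence the members share by their biology. RefSeq promoter windows (GRCm38.p6, 250 bases before to 50 after the start) were found for 25 of the 33 members, which is 75.8%, and Dhx58, Mx1, Mx2, Oas2, Parp14, Rtp4, Usp18 and Zbp1 had none. The motif GAAANNGAAA, searched on both strands with overlapping matches allowed, occurred in the windows of 15 of these 25 genes (12 of 20 effectors and 3 of 5 regulators). Of 27025 genes with a window, 3.99% had it. A match is a description of letters and not a measured binding site, and members without a window cannot be counted, so levels were not compared by motif. The 7 stretches below, all upstream of the start site and on the gene's own strand, belong to members whose values are given later. Capitals mark the matched bases, read on either strand.
Isg15: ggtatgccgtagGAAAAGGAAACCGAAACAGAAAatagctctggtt
Ifit1: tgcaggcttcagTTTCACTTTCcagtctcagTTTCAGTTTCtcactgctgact
Bst2: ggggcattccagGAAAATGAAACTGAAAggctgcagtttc
Oas1a: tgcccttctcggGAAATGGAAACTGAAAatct
Gbp3: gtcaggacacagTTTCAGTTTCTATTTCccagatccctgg
Rsad2: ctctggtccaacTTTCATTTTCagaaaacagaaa
Stat2: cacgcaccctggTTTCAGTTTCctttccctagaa

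The Isg15 stretch (chr4:156200863-156200908, minus strand) holds 3 overlapping matches, more than any other stretch printed. Those of Bst2 (chr8:71537575-71537614, minus), Oas1a (chr5:120907526-120907557, minus) and Gbp3 (chr3:142559987-142560026, plus) hold 2 overlapping matches each. Ifit1 (chr19:34640773-34640825, plus) has 2 separate matches. Rsad2 (chr12:26456551-26456584, minus) and Stat2 (chr10:128270264-128270297, plus) have 1 each.

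Libraries of the stages held 7897769 to 22167294 reads and those of the IL4 experiment 2408531 to 4214266, and the tables were fitted separately. Levels are CPM (reads scaled to a common library size with TMM factors), and a change counts as called when edgeR's quasi-likelihood test gave a Benjamini-Hochberg adjusted p under 0.05 over all genes tested. Macrophage markers summed to 8391 to 11304 CPM in precursors and 32382 to 75525 CPM in the later stages. Granulocyte markers summed to 14472 to 21536 CPM in precursors, 146 to 209 CPM in immature and 1.15 to 4.53 CPM in mature cells. In bulk RNA, fewer cells of a type and less RNA per cell cannot be told apart. Adgre1 had no row in the IL4 table, and of the 6675 genes with at least 20 CPM in mature cells and a row in both tables, 407 (6.1%) were listed at 0 reads in all 6 libraries there. Among these 407 were 39 ribosomal protein genes. Isg15 and Ifit3, lower in mature cells, were also listed at 0, and Ifitm3 had 1 read over the 6 libraries. Nothing is drawn from these rows about IL4.

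All 32 members with a row passed the filter on low counts in the stage table. Of the 33 with a row in the IL4 table, 25 passed, and Ifit2, Ifit3, Isg15, Isg20, Mx2, Ifi44, Herc6 and Ifitm3 did not. The genes of type I and type III interferons themselves (20 with a row) summed to 0 to 0.205 CPM in the 9 stage libraries. The 16 with a row in the IL4 table had 0 reads in all 6 libraries, where 3 reads would be 0.703 to 1.23 CPM.

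**Figure D1:**
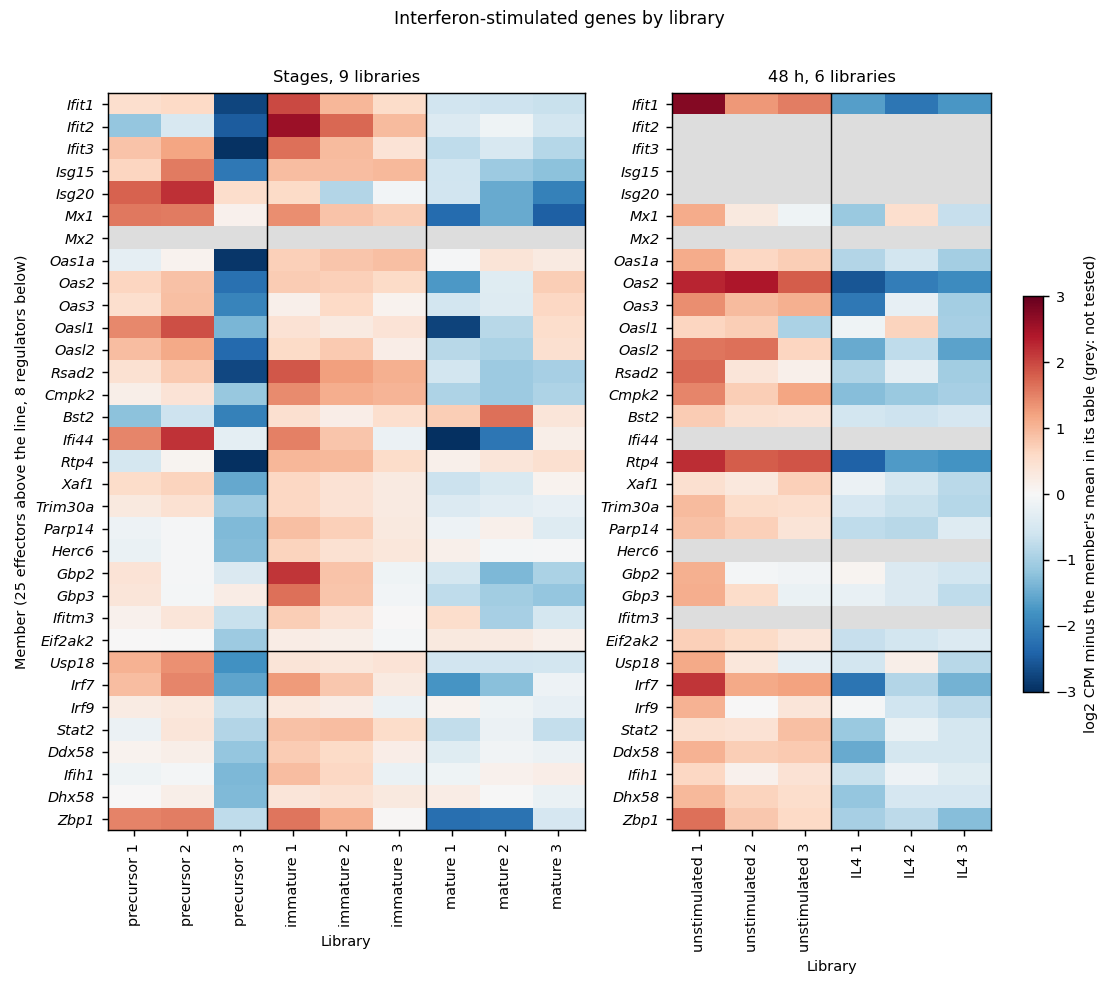
Each cell is the log2 CPM of a member (rows) in a library (columns) minus that member's mean over the libraries of its table, with colours ending at -3 and 3. Grey marks members not tested; precursor library 3 is low in 31 of 32 members, and the IL4 libraries lie below the unstimulated ones in 20 called members.

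Precursor library 3 stood apart before any comparison was made. It was the lowest of the 3 precursor libraries in 31 of 32 members (23 of 24 effectors and 8 of 8 regulators), against 4430 of all 13359 genes tested. The exception was Gbp3, at 24.8, 18.3 and 22.2 CPM in libraries 1 to 3. Effectors averaged 5.53, 5.80 and 3.6 log2 CPM in precursor libraries 1 to 3, and regulators averaged 6.07, 6.30 and 4.44. Ifit3, which shares 61.8% of its 31-base words with Ifit3b and may exchange reads with it, read 55.9, 70.2 and 3.77 CPM. Usp18 read 36.1, 45.3 and 4.9 CPM in the same libraries.

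The same library had the highest granulocyte sum of its group (21536 CPM against 16192 and 14472) and the lowest macrophage marker sum (8391 CPM against 10625 and 11304). Plasmacytoid dendritic cell markers, a list that contains the member Bst2, summed to 358, 424 and 354 CPM in the 3 precursor libraries. Whether cell make-up takes part in the low ISG level of library 3 was not tested. Immature libraries also ranked: library 1 was the highest in 24 of 32 members and library 3 the lowest in 26 of 32, against 5521 and 5317 of all 13359 genes. Immature library 1 also had the lowest cell cycle sum (488 CPM against 1702 and 2351) and the highest macrophage marker sum (58481 CPM against 39301 and 32382). Their part in its ISG level was not tested.

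Regulators and effectors ranked the libraries in the same order in every group but the unstimulated one. Effectors averaged 6.21, 5.83 and 5.54 log2 CPM in immature libraries and 4.44, 4.57 and 4.76 in mature ones. Regulators averaged 6.45, 6.27 and 5.81 in immature libraries and 4.94, 5.10 and 5.34 in mature ones. Every mature library was below every immature one for both classes, while precursor library 3 was below all mature libraries. In the 48 h groups effectors averaged 5.68, 5.20 and 4.97 without IL4 and 3.35, 3.68 and 3.37 with it. Regulators averaged 5.49, 4.89 and 4.92 without IL4 and 3.32, 3.93 and 3.57 with it, again with no overlap.

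**Figure D2:**
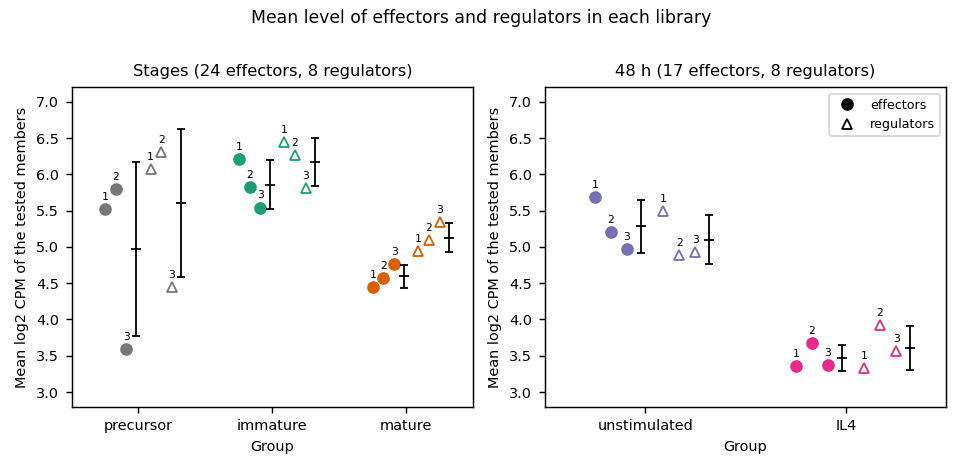
Points are the mean log2 CPM over the tested effectors (filled circles) or regulators (open triangles) in each library, numbered by mouse; bars are the mean and SD of 3 libraries. Both classes are lower in mature than in immature libraries and lower with IL4, and precursor library 3 lies below the other precursor libraries.

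The first comparison asks what changed between precursors and the immature macrophage. Of 32 members, 8 were higher in immature cells, 1 was lower and 23 did not pass. The 8 were the effectors Ifit2, Cmpk2, Bst2, Rtp4, Parp14 and Herc6 and the regulators Stat2 and Ifih1. Isg20, an exonuclease that degrades RNA, was the member that fell. Over all genes tested 49.2% were called, 22.5% higher and 26.6% lower, so 8 of 32 higher is close to the background. The shares of members called at all (9 of 32) and called lower (1 of 32) are below it. Of the 9, 6 changed at least 2-fold (34.6% of all genes), and groups did not overlap in 11 of 32 members (65% of all genes). The median log2 fold change of the members was 0.51, beside -0.07 for all genes.

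Ifit2, an RNA-binding member of the Ifit family, read 17.7, 28.5 and 6.9 CPM in precursors, 236, 132 and 76.9 CPM in immature cells and 29.9, 36.2 and 27.2 CPM in mature cells. All immature libraries were above all others. It was 8.32-fold higher in immature cells than in precursors (log2 3.06, SE 0.50, adjusted p = 0.000635) and 4.78-fold lower in mature than in immature cells (adjusted p = 0.0115), both by edgeR's quasi-likelihood test. The call of the fall was lost with limma.

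Cmpk2, a mitochondrial nucleotide kinase, read 35.8, 42.2 and 14.3 CPM in precursors, 85.7, 67.5 and 64.5 CPM in immature and 16.7, 14.7 and 16.6 CPM in mature cells. The 3 mature libraries lay close together and below all immature ones. It rose 2.35-fold (adjusted p = 0.00952) and then fell 4.53-fold (adjusted p = 0.00206) in the edgeR fit. Its neighbour Rsad2 read 56.2, 70.8 and 6.02 CPM, then 151, 95.9 and 85.6 CPM, then 27.8, 19.1 and 20.7 CPM. For Rsad2 the rise missed the threshold (edgeR, log2 1.32, SE 0.62, adjusted p = 0.10) and the fall was 4.92-fold (adjusted p = 0.036). The call of that fall was lost in 6 of the 9 fits that left out 1 library (precursor 1, immature 1 and 2, and mature 1, 2 and 3) and with limma.

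Bst2 took another course. It read 69.3, 105 and 39.5 CPM in precursors, 227, 187 and 229 CPM in immature and 269, 509 and 208 CPM in mature cells. Both later stages lay above all precursors, and the mature libraries overlapped the immature ones. The edgeR fit called it 3.0-fold higher in immature cells (adjusted p = 0.00596) and 4.6-fold higher in mature cells (adjusted p = 0.000786), each against precursors. It was the only member called higher in mature cells than in precursors.

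Rtp4, a receptor transporter protein, read 33.3, 51.1 and 5.54 CPM in precursors, 95.7, 93.6 and 70.8 CPM in immature and 53.3, 61.9 and 66.4 CPM in mature cells. Immature cells were above precursors in all libraries (edgeR, 2.88-fold, adjusted p = 0.0387), but the call was lost without precursor library 1, immature library 1 or 2, or mature library 2. Its row in the stage table spans chr16:23520291-23614222 (GRCm38), longer than in the IL4 table (chr16:23609919-23614222). The longer span overlaps Gm45338 on the same strand, with which Rtp4 shares 12.5% of its 31-base words, and Masp1 on the other. Parp14, an ADP-ribosyltransferase, read 186, 202 and 82.8 CPM, then 389, 338 and 254 CPM, then 188, 232 and 158 CPM. Its rise to immature cells was 2.09-fold (edgeR, adjusted p = 0.0171), and its fall afterwards did not pass (adjusted p = 0.126). Herc6, a ubiquitin ligase that attaches Isg15, read 26.4, 29.3 and 12.1 CPM and then 47.8, 41.4 and 38.2 CPM, 1.87-fold higher in immature cells (edgeR, adjusted p = 0.0219).

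Stat2, the subunit of the signalling complex, read 73.8, 107 and 45 CPM in precursors, 154, 159 and 121 CPM in immature and 49.6, 73.4 and 50.9 CPM in mature cells. Immature libraries were above all others. It rose 1.92-fold and fell 2.50-fold (edgeR, adjusted p = 0.0208 and 0.0132). Ifih1 read 49.8, 52.7 and 21.5 CPM in precursors, and 104, 84.4 and 47.7 CPM in immature cells. These 2 groups overlapped although the call passed (edgeR, 1.90-fold, adjusted p = 0.0461). The call of Ifih1 was lost in 6 of the 9 fits that left out 1 library (precursor 1 and 3, immature 1 and 2, mature 2 and 3), that of Isg20 without precursor library 1 or 2 or immature library 2 or 3, that of Stat2 without precursor library 1 or 3 or immature library 2, and that of Herc6 without immature library 1 or 2. Without precursor library 3, Stat2 and Ifih1 lost their call, and Oas1a and Rsad2 gained one. Then 8 were again higher and 2 lower (Isg20 and Usp18), beside 18.8% and 22.8% of all genes. With limma, Isg20 and Ifih1 lost their call.

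**Figure D3:**
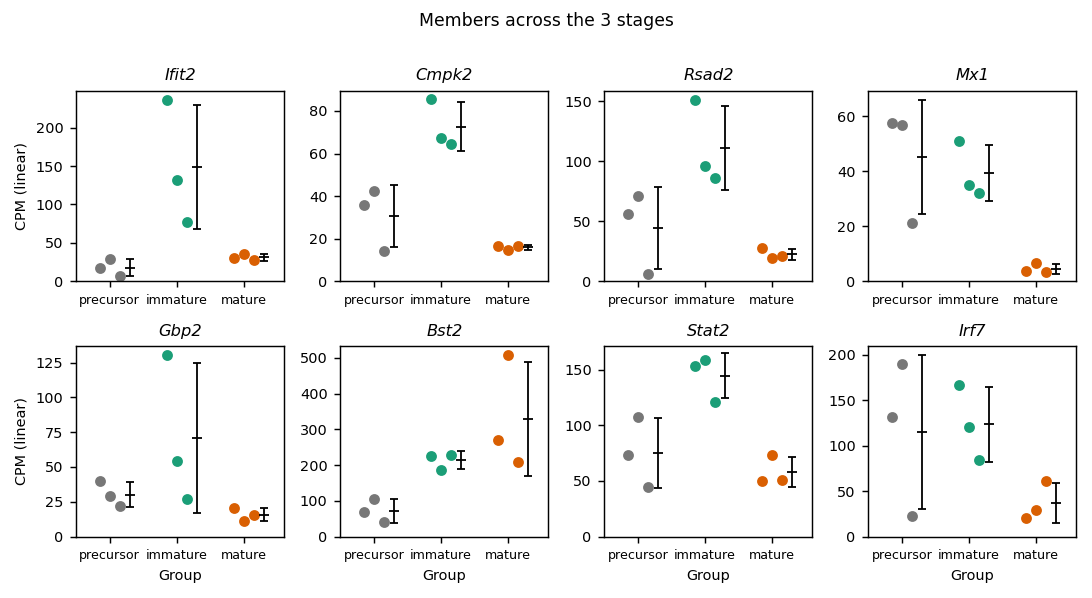
CPM of 8 members in each library (points, mice 1 to 3 from left to right) of the 3 stages on linear axes that start at 0; bars are the mean and SD of 3 libraries. Ifit2, Cmpk2, Rsad2 and Stat2 are highest in immature cells, Mx1 and Irf7 are low in mature cells, and Bst2 is high in both later stages.

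The second comparison sets mature macrophages at 120 ng/ml CSF1 against immature ones at 12 ng/ml. Here 8 of 32 members (14.9% of all genes were called) fell, 0 rose and 24 did not pass: the effectors Ifit2, Mx1, Rsad2, Cmpk2, Gbp2 and Gbp3 and the regulators Stat2 and Zbp1. At an unadjusted p under 0.05, 16 were lower and 0 higher, beside 2006 lower and 2094 higher of all 13359 genes. DESeq2 called 10 lower and 0 higher, beside 10.3% and 9.9% of all genes. Of all genes tested 7.52% were called higher and 7.38% lower in the edgeR fit, so the share of members called lower, 8 of 32, is above the background. The members' median log2 change was -0.84, beside 0 for all genes, and 30 of 32 were below 0. Groups did not overlap in 21 of 32 members, against 32.2% of all genes. All 8 fell at least 2-fold, against 10.3% of all genes called with such a change.

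Other cell types' markers moved between the same stages. Inflammatory monocyte markers summed to 344 to 455 CPM in immature and 1.38 to 4.29 CPM in mature cells, with 7 of 8 lower. Granulocyte markers were lower in 11 of 14. Their part in the members' fall was not tested.

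Mx1, a GTPase that blocks influenza virus replication, changed most. C57BL/6 mice are known to carry a defective Mx1 allele, so its reads come from a shortened gene. It read 57.6, 56.7 and 21.1 CPM in precursors, 50.9, 35 and 32.2 CPM in immature and 3.72, 6.67 and 3.37 CPM in mature cells. All mature libraries were below all others. It was 8.72-fold lower in mature than in immature cells (edgeR, log2 -3.12, SE 0.42, adjusted p = 0.00101) and 9.99-fold lower than in precursors (adjusted p = 9.25e-05).

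The guanylate-binding proteins Gbp2 and Gbp3, GTPases that act on pathogen-containing vacuoles, fell together. Gbp2 read 131, 54.1 and 27.1 CPM in immature and 20.6, 11.5 and 15.4 CPM in mature cells (edgeR, 4.46-fold, adjusted p = 0.0152). Gbp3 read 60.7, 34.4 and 18 CPM and then 11.3, 9.24 and 8.5 CPM (3.91-fold, adjusted p = 0.00611). In both genes immature library 1 was the highest by far, and the groups still did not overlap. The call of Gbp2 was lost with limma.

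Zbp1, a sensor of Z-form nucleic acid, read 29.1, 29.9 and 5.94 CPM in precursors, 31.3, 22 and 10.5 CPM in immature and 2.02, 2.11 and 7.19 CPM in mature cells. It fell 5.55-fold between the last 2 stages (edgeR, adjusted p = 0.0335), a call lost without precursor library 1, immature library 1 or 2, or mature library 1 or 2, and with limma or the mouse number as a block. Mature library 3 was the highest of its group. It was also the highest for Irf7 (20.1, 28.9 and 61.5 CPM), Oas2 (11.5, 30.2 and 64.7 CPM), Oasl1 (2.35, 9.48 and 24.6 CPM) and Oasl2 (45.7, 42.2 and 114 CPM), none of which passed between these stages. Oas3, at 67.5, 75.2 and 151 CPM, was highest there too. Over all 32 members, mature library 3 was the highest in 12 and the lowest in 12, against 4507 and 4396 of all 13359 genes. The same library had a mitochondrially encoded sum of 3768 CPM against 884 and 615, a dendritic cell marker sum of 268 CPM against 79.6 and 47.5, and the lowest macrophage marker sum (50433 CPM against 75525 and 74576). Their part in its higher levels of the members named was not tested.

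Several well-known members missed the threshold in this comparison although their groups were apart. Isg15, the ubiquitin-like protein attached to other proteins, read 21.3, 40.5 and 2.97 CPM in precursors, 26.2, 26 and 26.7 CPM in immature and 8.99, 6.32 and 5.74 CPM in mature cells. The mature libraries were below all immature ones (edgeR, log2 -1.90, SE 0.65, adjusted p = 0.0738). Ifit1, which binds RNA lacking cap methylation, read 32.8, 35.5 and 3.29 CPM, then 92.8, 46.5 and 34.1 CPM, then 15.5, 15.1 and 14.5 CPM (adjusted p = 0.071). Irf7 read 132, 190 and 23 CPM in precursors and 166, 121 and 83.7 CPM in immature cells. The immature values were all above its mature values (adjusted p = 0.0917). Usp18 read 22.9, 22.1 and 23.5 CPM in immature and 11.7, 11.7 and 11.9 CPM in mature cells (adjusted p = 0.282).

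The test's estimate of spread was shared by the 3 stages, precursor library 3 included. Without that library, 16 of 32 members were lower in mature than in immature cells, with Ifit1, Ifit3, Isg15, Trim30a, Parp14, Usp18, Irf7 and Ddx58 added and none lost. Then 6.6% of all genes were called lower. The members' median, at -0.84, could hardly change, since that library is in neither group. Without immature library 2 or mature library 2, 5 were called in each case, all lower, beside 4.21% and 5.35% of all genes lower. Stat2 lost its call without immature library 2 and Gbp2 without mature library 2. In the edgeR fit on the 6 libraries of these stages alone, 14 were called lower, beside 5.2% of all genes.

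The following members did not pass in any stage comparison. Eif2ak2 (PKR, a kinase that stops translation) read 85.6, 84.8 and 40.1 CPM in precursors, 98.6, 96.4 and 82.1 CPM in immature and 104, 103 and 94.6 CPM in mature cells. Ifitm3, which blocks virus entry, read 127, 149 and 73.9 CPM, then 194, 159 and 117 CPM, then 169, 58.4 and 81.2 CPM. Irf9, whose annotated span overlaps that of Rnf31 on the same strand, had group means of 97.6 ± 32.6, 105 ± 18.4 and 90.6 ± 11.6 CPM (SD, n = 3). Dhx58 had 57.5 ± 26.7, 88.8 ± 5.39 and 69.2 ± 9.74 CPM, and Ddx58 had 86.4 ± 37.4, 141 ± 28.0 and 84.4 ± 7.77 CPM. Missing the threshold does not show that these genes were level.

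Across the whole course, from precursors to mature cells, 1 member was called higher (Bst2) and 7 lower: Isg20, Mx1, Cmpk2, Ifi44, Gbp3, Irf7 and Zbp1. The other 24 did not pass, among them Rtp4 and Eif2ak2, whose mature libraries were above all precursors. Over all genes tested 54.3% were called, 25.8% were called higher and 28.5% lower, so 7 of 32 members lower is not above the background. Of the 8, 7 changed at least 2-fold (39.1% of all genes), and groups did not overlap in 7 of 32 members (64.1% of all genes). The median log2 change was -0.44, beside -0.05 for all genes. Isg20 read 10.5, 14 and 4.33 CPM in precursors, 4.49, 1.53 and 2.81 CPM in immature and 1.94, 0.936 and 0.612 CPM in mature cells, which was 8.19-fold lower at the end (edgeR, adjusted p = 0.00133). Its fall to immature cells was 3.24-fold (adjusted p = 0.0231), with overlapping groups. Zbp1 was 5.65-fold lower, Gbp3 2.25-fold lower, Cmpk2 1.93-fold lower and Irf7 3.12-fold lower, with edgeR adjusted p of 0.00972, 0.0201, 0.0312 and 0.048. For Cmpk2, Ifi44, Irf7 and Zbp1 the groups overlapped through the low value of precursor library 3. Without that library 16 of 32 members were lower and 1 higher, beside 24.6% and 21.5% of all genes, so the share lower is then above the background. Without precursor library 1 or mature library 2 the total was 4, and without mature library 1 it was 5, beside 46.5%, 49.1% and 48.2% of all genes called. The call of Irf7 was lost without precursor library 1 or 2, immature library 2 or 3, or mature library 1 or 2, and that of Ifi44 without precursor library 1 or 2, immature library 2, or mature library 1 or 2. That of Cmpk2 was lost without precursor library 1 or 2 or any 1 mature library, and that of Gbp3 without precursor library 1 or mature library 2 or 3. With limma, the calls of Cmpk2, Ifi44, Gbp3, Irf7 and Zbp1 were lost.

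IL4, the cytokine that drives the alternative activation of macrophages, was compared with medium alone after 48 h. Of the 25 members tested, 20 were lower with IL4, 0 were higher and 5 did not pass. The 20 comprised 13 of 17 effectors and 7 of 8 regulators, and in all 20 the 3 IL4 libraries lay below the 3 unstimulated ones. Of all genes tested 20.8% were called, 10.3% lower and 10.5% higher, so the share of members called lower, 20 of 25, is above the background. Their median log2 change was -1.37, beside 0.01 for all genes. At an unadjusted p under 0.05, 22 were lower and 0 higher, beside 1389 lower and 1422 higher of all 8936 genes. DESeq2 called 19 lower and 0 higher, all but Xaf1 of the 20, beside 10.2% of all genes lower. The fall was at least 2-fold in 18 members. Of all genes, 13.3% were called with such a change and 6.77% were called lower with it. Groups did not overlap in 21 of 25 members, against 35.9% of all genes.

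Of the 25, 5 had passed the filter on low counts through the unstimulated group alone (Ifit1, Mx1, Oas2, Xaf1 and Zbp1), so their entry favoured a fall. Of the 20 that passed through both groups, 16 were called lower. With any 1 library left out, 16 to 19 members were called, all lower, beside 7.41% to 9.54% of all genes lower. Unstimulated library 1 was the highest of its group in 20 of 25 members, against 3033 of all 8936 genes. Without it 17 were called lower, beside 9.54% of all genes.

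The largest fall was that of Oas2, which makes the 2-5A signal for RNase L. It read 92.5, 103 and 66.6 CPM without IL4 and 2.68, 3.97 and 4.61 CPM with it. The groups were far apart (edgeR, 23.3-fold lower, log2 -4.54, SE 0.28, adjusted p = 2.56e-06). Its family members moved by different amounts. Oasl2 read 195, 201 and 99.6 CPM and then 22, 37.1 and 20.4 CPM, 6.24-fold lower (adjusted p = 0.000165). Oas3 read 99.3, 73.4 and 78.7 CPM and then 8.03, 31.4 and 18.1 CPM, 4.42-fold lower (adjusted p = 0.00189).

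Oas1a read 84, 59.8 and 65.4 CPM without IL4 and 20.9, 26.1 and 18.8 CPM with it, 3.19-fold lower (edgeR, adjusted p = 0.000258). It shares 68.7% of its 31-base words with Oas1g, so reads may be split between the pair. Oas1g fell as well, from 53.9 ± 8.47 to 16.9 ± 2.08 CPM (SD, n = 3 each, adjusted p = 0.000195). Oasl1 did not pass, at 14.5, 15.7 and 4.44 CPM without and 8.3, 14.9 and 4.28 CPM with IL4, and its groups overlapped.

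**Figure D4:**
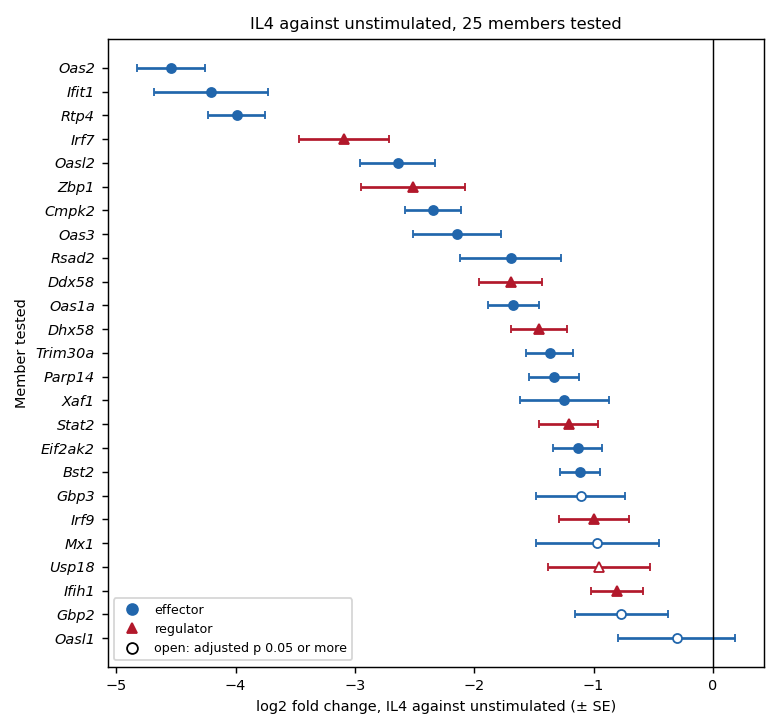
log2 fold change (± SE) of the 25 members tested, IL4 against unstimulated, with effectors as circles and regulators as triangles; filled symbols passed an adjusted p under 0.05. All 25 estimates lie below 0, from -4.54 for Oas2 to -0.31 for Oasl1.

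Ifit1 fell from 57.3, 20.6 and 24.2 CPM to 2.14, 1.32 and 1.98 CPM, 18.5-fold (edgeR, adjusted p = 0.000119). Unstimulated library 1 was the highest, and all 3 were above the IL4 libraries. Rtp4 fell from 255, 192 and 201 CPM to 9.64, 16.2 and 15.1 CPM, 15.9-fold (log2 -3.99, SE 0.24, adjusted p = 2.43e-06). Cmpk2 read 71.1, 42.9 and 59.2 CPM against 10.2, 11.6 and 12.5 CPM, 5.08-fold lower (adjusted p = 5.95e-05). Its neighbour Rsad2 fell 3.24-fold, from 28.6 ± 18.3 to 8.97 ± 2.86 CPM (SD, n = 3 each, adjusted p = 0.015), and lost its call without IL4 library 3.

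Bst2 read 581, 473 and 458 CPM without IL4 and 233, 223 and 242 CPM with it, 2.17-fold lower (edgeR, adjusted p = 7e-04). Both groups were tight. Trim30a, a tripartite-motif ubiquitin ligase, read 114, 85.7 and 83.4 CPM against 41.2, 36.4 and 31.9 CPM (2.58-fold, adjusted p = 0.00058). Parp14 read 68.8, 61.4 and 49.3 CPM against 22, 20.9 and 28.3 CPM (2.52-fold, adjusted p = 0.00102). Eif2ak2 was 2.19-fold lower, at 29.3 ± 3.50 against 13.4 ± 1.39 CPM (SD, n = 3 each, edgeR, adjusted p = 0.00243).

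Among the regulators Irf7 fell most. It read 104, 51.5 and 54.3 CPM without IL4 and 4.55, 12.2 and 8.23 CPM with it, 8.52-fold lower (edgeR, log2 -3.09, SE 0.38, adjusted p = 0.000187). Its span overlaps that of Phrf1 on the other strand, but the transcripts share only 0.361% of Irf7's 31-base words. Oas2, Oasl1 and Usp18 also overlap a gene on the other strand and share 0%, 0.409% and 3.48% of their words with any other gene. Whether the counting used strand is not known, so reads from such shared stretches cannot be told apart. The cytosolic RNA sensors fell as a trio. Ddx58 read 63.8, 51.5 and 53.8 CPM against 10.4, 21.2 and 21.1 CPM (3.24-fold, adjusted p = 0.000976). Dhx58, whose span holds the antisense gene Dhx58os, read 65, 53.2 and 47.8 CPM against 14.5, 23.2 and 23 CPM (2.75-fold, adjusted p = 0.00112). Ifih1 had the smallest called change, 1.75-fold (adjusted p = 0.0222), from 40.0 ± 6.77 to 23.1 ± 4.20 CPM, and its call was lost without unstimulated library 1 or 3 or IL4 library 1 or 3.

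Stat2 read 77, 74.6 and 103 CPM without IL4 and 25.2, 48 and 37.5 CPM with it, 2.31-fold lower (edgeR, adjusted p = 0.00502). Irf9, its DNA-binding partner, read 60.5, 29.3 and 37.7 CPM against 28.1, 19.2 and 16.8 CPM, 1.99-fold lower (adjusted p = 0.0347). The call of Irf9 was lost without unstimulated library 1 or IL4 library 2 or 3, and with limma. Xaf1, a promoter of apoptosis, was at 3.37 ± 0.536 CPM without and 1.4 ± 0.448 CPM with IL4 (2.37-fold, adjusted p = 0.0377). Its call was lost with DESeq2, without the filter on low counts, and without unstimulated library 2 or IL4 library 2 or 3, and it was not tested without unstimulated library 1 or 3. Zbp1 fell 5.72-fold, from 7.62 ± 3.40 to 1.33 ± 0.334 CPM (adjusted p = 0.00184). Usp18 was the regulator that did not pass, at 13.4, 7.42 and 4.69 CPM without and 3.75, 6.62 and 2.96 CPM with IL4 (adjusted p = 0.153).

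The other members that missed the threshold were low in this table. Mx1 read 8.45, 4.53 and 3.21 CPM against 1.34, 5.3 and 1.98 CPM, Gbp2 12.2, 5.36 and 5.18 CPM against 5.89, 3.97 and 3.62 CPM, and Gbp3 13.4, 9.07 and 5.18 CPM against 5.09, 4.3 and 3.29 CPM. Their adjusted p in the edgeR fit was 0.236, 0.21 and 0.0584. With the mouse number as a block, Gbp2, Gbp3 and Usp18 passed as well, for 23 of 25 lower. All genes gained calls under the block, with 16.1% lower. Of the 8 untested members, Ifit2 had 3.05, 2.47 and 3.7 CPM without and 1.34, 2.32 and 2.30 CPM with IL4. Isg20, Mx2, Ifi44 and Herc6 had at most 4.95 CPM in any library.

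**Figure D5:**
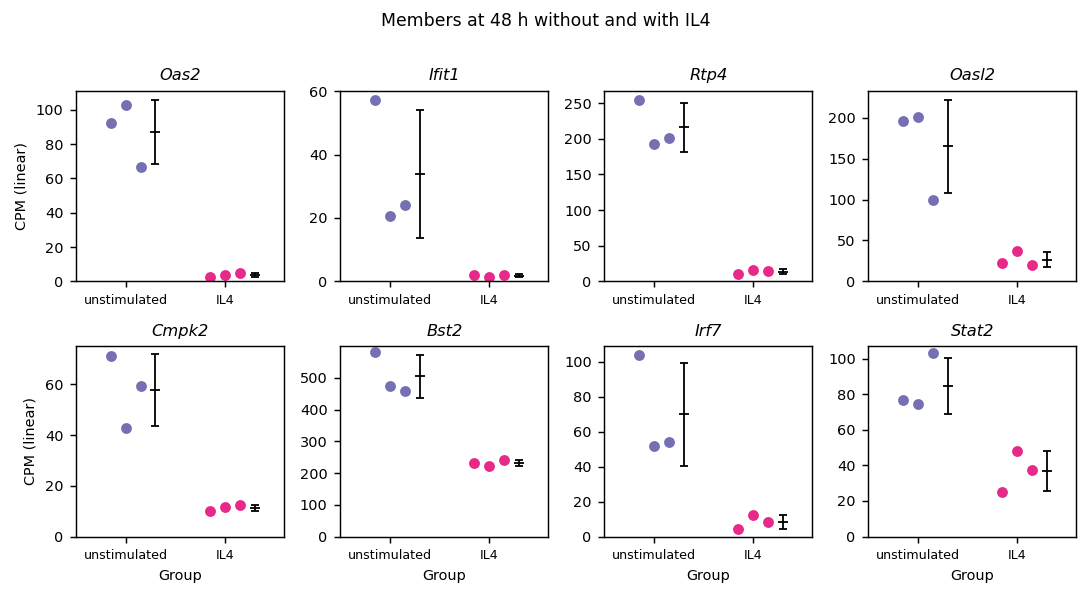
CPM of 8 members in each 48 h library (points, mice 1 to 3 from left to right) on linear axes that start at 0, without and with IL4; bars are the mean and SD of 3 libraries. In all 8 the IL4 libraries lie below the unstimulated ones.

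Other changes accompanied the fall with IL4. Macrophage markers summed to 48362 to 65482 CPM without IL4 and 28346 to 30540 CPM with it, 5 of 10 tested lower and 1 higher. The fallers included Fcgr1, which is itself interferon-inducible (101 ± 7.62 to 9.60 ± 3.68 CPM, SD, n = 3 each), while Cd68 stood at 3026 and 3034 CPM on average. Cell cycle genes were lower in 10 of 13 tested. The dendritic cell marker sum rose from between 13.8 and 68 CPM to between 2369 and 4257 CPM, and both tested markers were higher. Itgax read 12.6 to 66.8 CPM without and 2356 to 4242 CPM with IL4, and Batf3 0.704 to 0.824 against 11.9 to 16.2 CPM. Zbtb46, not tested, had 0 reads without IL4 and 1.07 to 1.65 CPM with it, Clec9a had at most 0.493 CPM, and Flt3, Xcr1, Cd209a and Dpp4 had 0 reads in all 6 libraries. Plasmacytoid dendritic cell markers summed to 550 to 683 CPM without IL4 and 323 to 335 CPM with it, and the member Bst2 was the most abundant. Of the 4 tested, Bst2 was lower, Runx2 (1.23 ± 0.752 to 13.6 ± 3.92 CPM) and Cox6a2 (1.42 ± 0.891 to 4.63 ± 1.20 CPM) were higher and Tcf4 did not pass, and Siglech, Ccr9, Ly6d and Spib had 0 reads. The part of these changes in the members' fall was not tested.

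The rest of the pathway was read from lists of related genes. Of 52 other interferon-stimulated genes tested with IL4, 33 were lower, 3 higher and 16 did not pass. Of all genes, 10.3% were called lower and 10.5% higher. Siglec1, a sialic acid receptor of macrophages, fell from 1037 ± 126 to 152 ± 63.0 CPM (SD, n = 3 each, edgeR, adjusted p = 9.4e-05). The chemokine Cxcl10 read 74.9, 18.5 and 17.8 CPM without IL4 and 0.803, 0.662 and 0.658 CPM with it (adjusted p = 0.000365). The 3 higher genes were Cd274 (PD-L1, log2 1.78), Psmb10 and Tor3a. All 5 tested genes of the list of interferon gamma GTPases and partners were lower, with Gbp7, Gbp9 and Irgm1 leading.

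Genes of the receptor and its signalling were called at about the share of all genes (20.8%). Of 9 tested receptors, kinases and STATs, Jak2 was higher with IL4 (11.8 ± 5.84 to 27.6 ± 8.19 CPM) and Ifngr1 lower (228 ± 51.6 to 137 ± 22.6 CPM), and 7 did not pass. Ifnar1 read 348, 349 and 378 CPM without and 246, 296 and 335 CPM with IL4, and Ifnar2 read 89.6, 55.6 and 88.5 against 68.3, 72.5 and 77.7 CPM, with edgeR adjusted p of 0.278 and 0.796. Of 20 genes for sensing and inducing interferon, 4 were lower and 0 higher, beside 10.3% and 10.5% of all genes. At an unadjusted p under 0.05, 7 were lower and 1 higher. The 4 called were the endosomal receptors Tlr9 and Tlr7, the kinase Ikbke and Irf8. Irf8, a factor of myeloid identity, read 290, 363 and 389 CPM against 190, 198 and 265 CPM (adjusted p = 0.0291). Irf1 (141, 121 and 98.9 against 99.9, 121 and 83.3 CPM) and Irf3 (33.1, 37.5 and 34.8 against 32.4, 34.1 and 28 CPM) did not pass. Of 11 feedback inhibitors 4 were lower (Trim21, Nlrc5, Ptpn6 and Adar) and 0 higher, beside the same shares of all genes.

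Across the stages the same lists gave calls that differed by comparison. Of 77 other interferon-stimulated genes, 20 were higher and 15 lower in immature cells than in precursors, beside 22.5% and 26.6% of all genes. In mature against immature cells 3 were higher and 15 lower, beside 7.52% and 7.38%, so the share lower is above the background. There 67 of 77 were below 0, with a median log2 change of -0.56. In mature cells against precursors 9 were higher and 25 lower, beside 25.8% and 28.5%. Slfn1, Trim30b and Ifit1bl2 had the lowest p among those that fell from precursors, and each was under 5 CPM on average in immature cells. Ifnar1 read 227, 240 and 206 CPM in precursors, 191, 209 and 221 CPM in immature and 275, 366 and 377 CPM in mature cells, and was higher in mature than in immature cells (edgeR, log2 0.71, SE 0.18, adjusted p = 0.0214). Ifnar2 read 185, 183 and 215 CPM, then 158, 129 and 110 CPM, then 137, 131 and 155 CPM, lower in immature cells than in precursors (adjusted p = 0.0239). Irf1 read 74, 82.3 and 95 CPM, then 166, 110 and 72.6 CPM, then 56.2, 67.6 and 53.4 CPM, lower in mature than in immature cells (adjusted p = 0.032). Irf8 read 447, 362 and 366 CPM, then 363, 300 and 245 CPM, then 255, 219 and 155 CPM, lower in mature cells than in precursors (adjusted p = 0.00669). Irf3 did not pass in any stage comparison.

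Between immature and mature cells the feedback and GTPase lists had calls in 1 direction. Of 14 feedback inhibitors 3 were lower and 0 higher, beside 7.38% and 7.52% of all genes. At an unadjusted p under 0.05, 7 were lower and 1 higher. The 3 called were the exonuclease Trex1 (62.9 ± 7.19 to 22.4 ± 0.972 CPM, SD, n = 3 each), the nucleotide hydrolase Samhd1 (276 ± 82.5 to 123 ± 8.95 CPM) and Socs3 (8.16 ± 4.86 to 1.57 ± 0.985 CPM). Of 13 interferon gamma GTPases and partners 6 were lower and 0 higher (9 lower and 0 higher at an unadjusted p under 0.05). Gbp7 fell from 56.9 ± 31.9 to 9.02 ± 1.51 CPM, and Ciita, the activator of MHC class II genes, was at 14.9 ± 10.3 CPM in immature cells with 0 reads in all 3 mature libraries. Sensing genes were mixed, with 2 of 21 higher (Tank and Traf3) and 4 lower (Trim25, Tmem173, Irf1 and Tlr9). Ifnb1 had 0.162 CPM in 1 mature library and 0 reads in the other 8.

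To find genes that varied with the members between libraries of one group, each gene with at least 10 CPM was ranked by the correlation of its deviations from the group means with those of the members' mean. Over the 9 stage libraries the 10 most alike included Trex1, Sbf2, Gm28177, Ly6a, Parp12, Gm42641, Twf1, Ifit3b and C3ar1, with r from 0.995 to 0.969. Of the 10, 4 are on the lists of the pathway. All points share libraries. The members' mean deviated most in precursors (0.53, 0.79 and -1.32 log2 in libraries 1 to 3), so r weighs those libraries most. Ifit3b may exchange reads with the member Ifit3. Over the 6 libraries of the IL4 table the 10 most alike (r from 0.995 to 0.956) included none from those lists.

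In the authors' deposited tables of genes under an FDR of 0.05, 11, 13 and 8 members are listed for immature against precursor, mature against immature and mature against precursor, and 20 for IL4 against unstimulated. The calls made here share 9, 8, 7 and 19 of these. The authors' deposited tables add Oas1a and Gbp2 for the first, Ifit1, Ifit3, Isg15, Usp18 and Irf7 for the second, Gbp2 for the third and Mx2 for IL4. Cmpk2 (mature against precursor) and Xaf1 (IL4) were called here only.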

How the data were processed

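RNA from 15 libraries (5 groups of 3) was sequenced on Ion Torrent from 1 µg total RNA each, per the labels' protocols. HISAT2 2.0.5, edgeR and the builds GRCm38.p6 and GRCm39.p6 are named in the submitters' processing notes. Which counter and strand setting were used: not given in the sources used here. For tests, the deposited read counts per gene were used, with the deposited log2 RPM values for an alternative and the FDR (adjusted p-value) of the authors' deposited tables for a comparison. Rows without a gene identifier (0.338% and 0.0148% of reads) were kept in the fits under their row name. They were left out only where genes of both tables were compared for 0 reads. Start and end of the members' rows were those of GENCODE M21 (GRCm38) for all 32 in the stage table and 22 of 33 in the IL4 table, and the rest overlapped them.

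Counts were fitted per table with edgeR 4.0.16 in R 4.3.3 (TMM, filterByExpr by group with a minimum count of 10, glmQLFit and glmQLFTest, Benjamini-Hochberg over the 13359 and 8936 genes tested), with all groups of the table sharing one estimate of spread. log2 CPM used a prior count of 2. The scripts were tested on simulated data. Alternatives were RLE scaling, DESeq2 1.42.0, other filters and thresholds, limma 3.58.1 on the log2 values, a block for mouse number, fits on 6 libraries, and each library left out. In the IL4 table deviations from the group means correlated with r from 0.17 to 0.59 over the 3 pairs of the same mouse number. For different numbers r was -0.49 to 0.25, so the ranges overlapped. The block is given beside the IL4 result. Members of both classes, the related gene lists and the rule for printing values (called, at least 5 CPM in the higher group, up to 12 per comparison, and 7 members always) were chosen with earlier results of these data known. The titles give a mouse number. The labels of the IL4 experiment add a code starting with M, different in all 6 libraries, whose meaning is not stated. Whether a number shared between groups is the same mouse is therefore not known. Where libraries are not separate animals, p-values measure only the spread between these samples. No libraries held identical values. A gene of the related lists is not reported here.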

Additional observations from a re-analysis of the deposited data

How the results depend on the processing

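No member changed direction past the threshold under any alternative run, and RLE scaling, DESeq2, both other filters and the 2-fold threshold kept every count within 1.5 times. The counts of members called were 9 for immature against precursor, 8 for mature against immature, 8 for mature against precursor and 20 for IL4. They became 1, 0, 2 and 10 at an adjusted p under 0.001, beside 16.4%, 1.57%, 22.2% and 5.82% of all genes called. With limma on the deposited log2 values they were 4 for mature against immature and 3 for mature against precursor. All genes called were then 12.1% and 54.5%. The fit on 6 libraries gave 14 for mature against immature, beside 10.6% of all genes. Causes were not tested, except that a stricter threshold can only remove calls. Leaving out 1 library gave 4 to 11, 5 to 16, 4 to 17 and 16 to 19 calls. Of all genes, 37.3% to 53.4%, 7.27% to 19.8%, 46.1% to 57% and 15.1% to 18.9% were then called. For immature against precursor the lowest came without immature library 2 (5 without precursor library 1) and the highest without immature library 3. For mature against immature the lowest came without immature library 2 or mature library 2, and for mature against precursor without precursor library 1 or mature library 2 (5 without mature library 1). Both had their highest without precursor library 3. Mean levels of effectors and regulators kept their order under RLE scaling, a prior count of 0.5 and the deposited log2 values.

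With the mouse number as a replicate block the counts were 12, 7, 8 and 23, beside 46%, 11.6%, 51.4% and 32.3% of all genes called. Among the stages, same-numbered libraries did not deviate together (r from -0.13 to 0.17 over 9 pairs, against -0.13 to 0.14 for different numbers). These values cannot show whether a number stands for the same mouse in each stage. The IL4 table is the shallower one, and 8 of 33 members were under its count filter.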
